A study of Ovis aries with 30 samples.

Results

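Brown adipose tissue (BAT) was compared with thyroid tissue within the same animals, in newborn Romney lambs held for 2 days at ambient temperature (AT, 20–22 °C). The libraries were chosen by their labels, as the BAT and the thyroid library of every lamb of the ambient group and paired by lamb, which gave 12 of the 30 libraries of the series and 6 of its 15 lambs (AT 1 to AT 6). The other lambs were 6 held for 2 days at 4 °C (Cold) and 3 sampled at the start (Control, 0 days). RNA-seq of poly(A) RNA was counted per gene. All lambs were twins, 1 from each dam, tagged within a day of birth, of both sexes, and the AT and Cold lambs stayed with their dam. BAT was taken from around the kidneys. The study measured a lower RNA integrity in BAT than in thyroid tissue, so tissue and RNA integrity cannot be told apart here.

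BAT makes heat in newborn lambs. Its adipocytes break down stored lipid when noradrenaline reaches beta-adrenergic receptors, and uncoupling protein 1 (UCP1) in their mitochondria then lets protons flow back without making ATP. The thyroid follicle builds thyroglobulin, has it iodinated and releases mostly thyroxine, which BAT can convert to the active hormone triiodothyronine with its own deiodinase.

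Depth differed between the tissues. BAT libraries held 31556500–34404783 counts and thyroid libraries 27609747–30124871. A pair of uncharacterised loci, LOC114112617 and LOC114115287, took 43.8–76.5% of the counts in BAT and 8.54–14.9% in thyroid tissue, so the counts left for all other genes were 8093700–18276329 and 23931875–25946973. Genes with at least 10 reads numbered 14901–16294 in BAT and 16698–17114 in thyroid tissue. The thyroid library of AT 3 stood apart, with 368 genes more than 4-fold above all other thyroid libraries, against 2–12 genes for each of the others and 2–22 for the BAT libraries. Those genes included the main skeletal muscle genes, described below. Results are given without this library only where stated, and the other values, among them the log2FC of SDHA, THRB and MRC1, include it.

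Of 16533 genes tested, 3063 were higher in BAT (18.5% of genes tested) and 2796 were higher in thyroid tissue (16.9%), at an absolute log2 fold change (log2FC, BAT over thyroid) of at least 1 and an adjusted p under 0.05. The difference went the same way in all 6 lambs for 5271 of these 5859 genes. Levels did not overlap between the 6 BAT and the 6 thyroid libraries for 2031 of the genes higher in BAT and 2222 of those higher in thyroid tissue, and for 5580 of all 16533 tested genes in either direction. At an absolute log2FC of at least 5, a rule used here for genes close to tissue-specific, 78 genes were higher in BAT (0.472%) and 312 in thyroid tissue (1.89%). With fewer counts outside the abundant pair, a gene of BAT alone reached the reads needed for testing less easily than one of thyroid tissue alone. The part of depth in these unequal numbers was not tested. In whole tissue, fewer cells of a type and less RNA per cell cannot be told apart. The median log2FC over all tested genes was -0.01. The reference genes ACTB, RPL19 and HUWE1 were themselves lower in BAT by less than the threshold, at log2FC -0.51 ± 0.22 (SE), -0.35 ± 0.16 and -0.27 ± 0.16. Scaling on them moved the median to 0.41 and the calls to 4591 higher in BAT against 1909 higher in thyroid tissue. BAT then took 70.6% of the calls in place of 52.3%, and fold changes below are relative to the all-gene scaling. Counts of list members below stand against the 18.5% of all tested genes higher in BAT and the 16.9% higher in thyroid tissue.

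**Figure D1:**
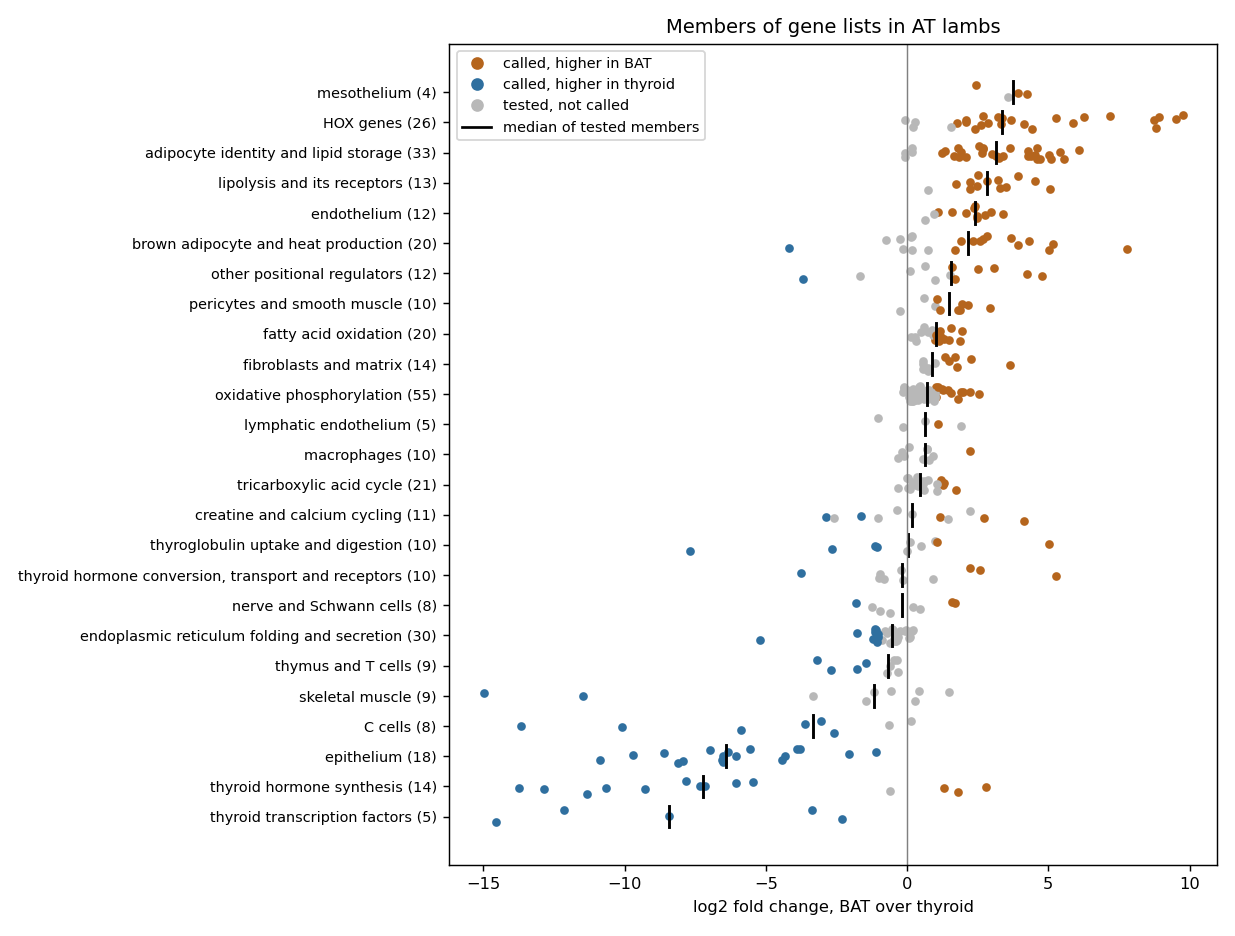
Each point is the log2 fold change (BAT over thyroid, x axis) of one tested member of a gene list, coloured when called and grey when not, with the number of tested members beside each list and a black bar at their median. Medians run from -8.44 for thyroid transcription factors to 3.35 for HOX genes and 3.74 for the 4 tested mesothelium genes.

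Of 28 genes of brown adipocytes and heat production, 20 could be tested: 12 were higher in BAT and 1 in thyroid tissue, with a median log2FC of 2.14. UCP1 (chr17:18691987-18698653, Oar_rambouillet_v1.0) had a level of 6.81 to 385 in BAT, with a median of 99.9, and of 0.119 to 0.896 in thyroid tissue, with a median of 0.246. Levels are counts per kilobase of gene model, scaled to the effective size of the library (TMM-scaled RPKM). BAT of AT 2 and AT 1 held the most UCP1 and BAT of AT 6 the least, and every BAT library lay above every thyroid library. The log2FC of UCP1 was 7.78 ± 0.75 (adjusted p = 5.1e-05). CIDEA, a lipid droplet protein of brown fat, was at 8.5, 38.1 and 116 in BAT (lowest, median and highest) and at 0.566, 0.858 and 3.15 in thyroid tissue (log2FC 5.15 ± 0.44). The beta 3-adrenergic receptor gene ADRB3 was at 1.87, 8.04 and 16.7 against 0.0689, 0.260 and 0.470 (log2FC 5.02 ± 0.61). Neither gene overlapped between the tissues, and both were lowest in the BAT of AT 6.

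A pair of regulators of brown fat identity followed, at lower levels. PRDM16 was at 0.768 to 1.62 in BAT against 0.0634 to 0.124 in thyroid tissue (log2FC 3.68 ± 0.23), and EBF2 at 8.78 to 20.4 against 1.75 to 2.85 (log2FC 2.69 ± 0.17). PPARGC1A, the coactivator of mitochondrial biogenesis, was not called: its levels of 0.919 to 4.73 in BAT enclosed those of 2.03 to 2.90 in thyroid tissue (log2FC -0.14 ± 0.35, adjusted p = 0.763). FABP3, a fatty acid carrier that is abundant in heart and muscle, went against its list. It was at 76.7, 110 and 131 in thyroid tissue against 2.40, 5.64 and 14.8 in BAT (log2FC -4.18 ± 0.31), with no overlap, and its log2FC was -4.23 without AT 3. UCP3, the uncoupling protein known from skeletal muscle, is on no list here and was singled out after its values were seen. It was at 12.7 to 21.9 in thyroid tissue, where AT 3 was not the highest, and no BAT library had more than 3 reads of it.

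**Figure D2:**
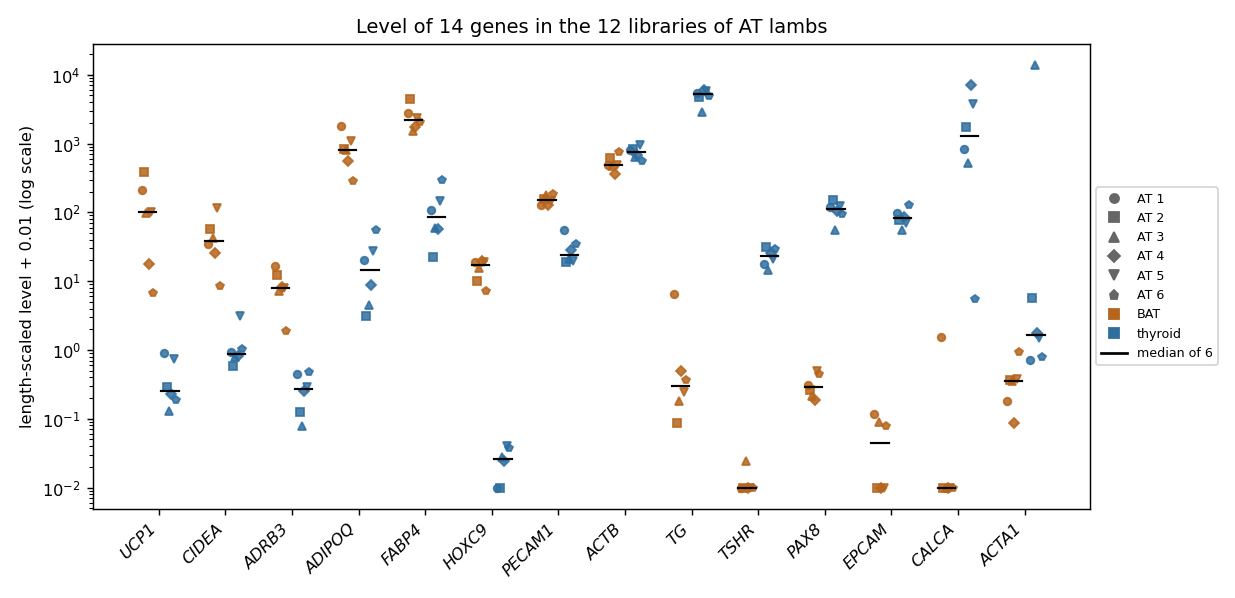
Length-scaled levels (log y axis, 0.01 added so that zeros can be drawn) of 14 genes in each BAT (brown) and thyroid (blue) library, with 1 marker shape per lamb and a black bar at the median of 6. UCP1 ranges from 6.81 to 385 in BAT, TG stays between 2918 and 5979 in thyroid tissue, CALCA is low in the thyroid library of AT 6 and ACTA1 is high in that of AT 3 alone.

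In the list of adipocyte identity and lipid storage, 29 of 33 tested genes were higher in BAT and none was higher in thyroid tissue, with a median log2FC of 3.16. FABP4, the adipocyte fatty acid carrier, was at 1517, 2179 and 4477 in BAT and at 22.5, 84.2 and 298 in thyroid tissue (log2FC 4.70 ± 0.59, adjusted p = 0.000212). The adiponectin gene ADIPOQ was at 288, 818 and 1803 in BAT and at 3.14, 14.4 and 55.3 in thyroid tissue (log2FC 6.10 ± 0.81). In thyroid tissue both were highest in AT 6 and lowest in AT 2. The leptin gene LEP was low throughout, at 0.949 to 7.21 in BAT and 0 to 0.156 in thyroid tissue (log2FC 5.56 ± 0.78). PPARG, the master regulator of adipocyte formation, was at 45.2 to 113 in BAT and 2.13 to 6.04 in thyroid tissue (log2FC 4.52 ± 0.32). The fatty acid synthase gene FASN was among the 4 genes that were not called, at medians of 11.5 and 10.8 (log2FC 0.17 ± 0.17, adjusted p = 0.425).

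The lipolysis list had 12 of 13 genes higher in BAT and none higher in thyroid tissue, with a median log2FC of 2.84. The triglyceride lipase gene PNPLA2 was at 95.5, 358 and 379 in BAT and at 41.7, 60.1 and 94.1 in thyroid tissue (log2FC 2.22 ± 0.30). BAT of AT 6 held the lowest value, just above the highest thyroid library. MGLL, which splits monoglycerides, was at 54.8 to 88.9 against 9.92 to 14.9 (log2FC 2.49 ± 0.15). The hormone-sensitive lipase gene LIPE was at 13.5, 42.1 and 55.0 against 1.19, 1.47 and 2.94 (log2FC 4.54 ± 0.42). ADRA1A, an alpha 1-adrenergic receptor, had the largest difference of the list, at 0.993 to 13.4 against 0.0667 to 0.147 (log2FC 5.05 ± 0.43). The adenosine receptor gene ADORA1 was the member not called (log2FC 0.76 ± 0.40).

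Mitochondrial lists differed less. In fatty acid oxidation, 12 of 20 tested genes were higher in BAT (median log2FC 1.03), in the tricarboxylic acid cycle 4 of 21 (0.44) and in oxidative phosphorylation 13 of 55 (0.72), and no member was called in the other direction. The shares called, 19.05% and 23.6% for the latter lists, were near the 18.5% of all tested genes that were higher in BAT, against 60% for fatty acid oxidation. Of the oxidative phosphorylation list, 18 genes, all of complexes III and IV or the cytochrome c between them, were not analysed here. ACADVL, which starts the oxidation of long-chain fatty acids, was at 57.4, 165 and 249 in BAT and at 41.0, 46.3 and 80.4 in thyroid tissue (log2FC 1.55 ± 0.27). The groups overlapped, as the BAT of AT 6 (57.4) lay below the thyroid tissue of AT 3 (80.4) and of AT 5 (60.3). The electron transfer gene ETFDH had the largest difference of its list (log2FC 1.94 ± 0.51), and SDHA, a subunit of complex II, that of the tricarboxylic acid cycle (1.72 ± 0.38). SDHA was at 14.2 to 19.3 in 5 thyroid libraries and at 74.7 in that of AT 3, inside the range of 30.6 to 110 in BAT.

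Within oxidative phosphorylation, the complex I subunit gene NDUFA10 was at 27.6, 82.1 and 85.2 in BAT against 6.57, 9.88 and 30.5 (log2FC 2.54 ± 0.32). UQCRH of complex III was at 210 to 580 against 50.4 to 140 (2.24 ± 0.29), and ATP5ME of ATP synthase at 154 to 536 against 73.6 to 134 (1.79 ± 0.23). Single lambs moved these counts. Without AT 3, whose thyroid library carried skeletal muscle RNA, 23 oxidative phosphorylation genes and 7 tricarboxylic acid cycle genes were higher in BAT. Without AT 6, whose BAT library was lowest for ACADVL and UCP1, the counts were 25 for oxidative phosphorylation and 15 for fatty acid oxidation. Without AT 1, whose BAT was highest for ACADVL, 5 fatty acid oxidation genes were higher in BAT. On the scale of the reference genes the counts were 9 for the tricarboxylic acid cycle and 32 for oxidative phosphorylation.

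Creatine and calcium cycling, other routes of heat production, gave no common direction: 3 of 11 tested genes were higher in BAT, 2 were higher in thyroid tissue, and without AT 3 the counts were 5 and 3. The share higher in BAT was 27.3%, against 18.5% of all tested genes. GATM, the other gene of creatine synthesis on the list, was higher in BAT (log2FC 1.17). The alkaline phosphatase gene ALPL was at 1.82 to 4.55 in BAT against 0.0749 to 0.274 (log2FC 4.14 ± 0.43), and the calcium channel gene RYR2 at 0.240 to 0.729 against 0.0400 to 0.148 (2.73 ± 0.36). The creatine transporter gene SLC6A8 was at 11.3 to 22.4 in thyroid tissue against 1.77 to 2.83 in BAT (-2.85 ± 0.20). GAMT, which makes creatine, was at 44.6 to 104 against 14.8 to 32.5 (-1.65 ± 0.16). The latter pair did not overlap between the tissues.

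Of 14 tested genes of thyroid hormone synthesis, 10 were higher in thyroid tissue and 3 in BAT, with a median log2FC of -7.24. Thyroglobulin (TG, chr9:22956462-23207959) was at 2918, 5194 and 5979 in thyroid tissue, the lowest value being that of AT 3. In BAT it was at 0.0754 to 0.476 in 5 libraries and at 6.59 in that of AT 1. The log2FC of TG was -13.73 ± 1.04 (adjusted p = 1.18e-05). Even the highest BAT library lay far below the lowest thyroid library.

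The iodide pump gene SLC5A5 was at 12.3, 42.8 and 89.2 in thyroid tissue and at or below 0.0840 in BAT (log2FC -10.66 ± 0.55). The iodotyrosine deiodinase gene IYD, which recovers iodide, was at 50 to 259 against 0 to 0.275 (-11.34 ± 0.55). The thyrotropin receptor gene TSHR was at 14.6, 23.2 and 30.9 in thyroid tissue, and 1 read was the most in any BAT library, so its mean level was at least 380-fold higher in thyroid tissue, set against a floor of 3 reads per library. The hydrogen peroxide source DUOX2 was at 11.8 to 31.9 against 0.0710 to 0.195 (-7.32 ± 0.20). NOX4, ANO1 and KCNQ1 went the other way. NOX4, another source of hydrogen peroxide, was at 0.227 to 0.864 in BAT against 0.0340 to 0.221 (2.79 ± 0.49). The chloride channel gene ANO1 was at 6.84 to 12.8 against 2.15 to 4.47 (1.81 ± 0.19), and the potassium channel gene KCNQ1 at 0.939 to 2.19 against 0.277 to 0.815 (1.30 ± 0.23).

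All 5 thyroid transcription factors were higher in thyroid tissue, with a median log2FC of -8.44. FOXE1 was at 53.4, 112 and 142 in thyroid tissue, with at most 1 read in any BAT library, a difference of at least 1252-fold against the same floor. NKX2-1 was at 52.8, 90.0 and 116 against 0 to 0.0977 (log2FC -12.16 ± 0.64), and PAX8 at 56.0, 111 and 150 against 0.180 to 0.486 (-8.44 ± 0.29). HHEX and GLIS3, which act in other organs as well, differed less (-3.37 ± 0.24 and -2.29 ± 0.17), and BAT held HHEX at 6.22 to 9.61. For all 5 genes the thyroid library of AT 3 was the lowest of the 6.

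All 18 tested epithelium genes were higher in thyroid tissue, with a median log2FC of -6.42, and 17 of them were with the reference genes as scale. EPCAM, a cell adhesion protein of epithelia, was at 56.2, 81.7 and 126 in thyroid tissue, with at most 3 reads in BAT (at least 520-fold). The tight junction genes CLDN4 and CLDN7 were at 72.7 to 131 and 67.6 to 136 in thyroid tissue, and at most 2.96 and 2.45 in BAT. RAB25, a trafficking protein, was at 21.1 to 45 against 0 to 0.171 (log2FC -9.69 ± 0.43). The keratin gene KRT8 was less clean, at 48.8 to 108 in thyroid tissue and 0.553 to 48.5 in BAT. The BAT of AT 4 held that highest value, and also the highest summed level of the 18 genes among BAT libraries, 121 against 13.6 to 53.0. In the BAT of AT 4 the mesothelium genes LRRN4 and UPK3B were highest too, at 9.08 and 8.19; their part in the KRT8 level was not tested.

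Of 30 genes for folding and secretion in the endoplasmic reticulum, 10 were higher in thyroid tissue and none in BAT, with a median log2FC of -0.52. On the scale of the reference genes 2 were called, and without AT 5 3 were. DERL3, a retrotranslocation factor, was at 3.70 to 12.1 in thyroid tissue and 0 to 0.386 in BAT (log2FC -5.20 ± 0.40), and HERPUD1, of the same pathway, at 42.1 to 49.0 against 10.3 to 17.2 (-1.76 ± 0.14). The chaperone gene CALR was at 99.8, 149 and 191 in thyroid tissue and at 50.6, 58.0 and 103 in BAT (-1.13 ± 0.24), with overlap between the BAT and the thyroid tissue of AT 6. It was not called with the reference genes (log2FC -0.71).

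Thyroglobulin uptake and digestion split: 4 of 10 tested genes were higher in thyroid tissue and 2 in BAT, with a median log2FC of 0.05. The share higher in BAT, 20%, was near the 18.5% of all tested genes. On the scale of the reference genes, and also without AT 5 or without AT 6, 2 were higher in thyroid tissue. LRP2, the megalin receptor that takes up thyroglobulin, was at 3.32 to 7.62 in thyroid tissue against 0.00338 to 0.0655 in BAT (log2FC -7.70 ± 0.51). The protease gene CTSB was at 115, 211 and 235 against 21.5, 26.4 and 47.8 (-2.65 ± 0.25). ASGR1, a receptor for asialoglycoproteins known from liver, was at 37.0, 121 and 210 in BAT against 1.40, 3.51 and 11.4 in thyroid tissue (5.04 ± 0.67). CTSL, another protease, passed narrowly (1.05 ± 0.35), and CTSD missed the fold threshold (0.999 ± 0.17).

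Genes that convert, carry or sense thyroid hormone differed singly: 3 of 10 tested were higher in BAT and 1 in thyroid tissue, with a median log2FC of -0.18. DIO1, the deiodinase best known from liver and kidney, was at 2.98, 13.1 and 31.1 in BAT and at 0.108, 0.313 and 1.34 in thyroid tissue (log2FC 5.26 ± 0.60, adjusted p = 0.000144). DIO2, the deiodinase known from brown fat, was at 0.112, 1.36 and 7.496 in BAT and at 0.0719, 0.183 and 0.439 in thyroid tissue (2.57 ± 0.92, adjusted p = 0.0422). The groups overlapped for DIO2, its highest BAT value was that of AT 2, as for UCP1, and its call was lost without AT 1, AT 2, AT 5 or AT 6 (log2FC 1.89 to 3.05) and when any gene with 1 read was tested (2.53). The receptor gene THRB was at 1.01 to 2.55 in BAT and at 0.0676 to 0.519 in 5 thyroid libraries, against 1.79 in that of AT 3 (2.23 ± 0.57). THRA was not called, at medians of 6.75 and 7.30 (-0.14 ± 0.13).

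HOX genes, which record the position of a cell along the body axis, were higher in BAT in 22 of 26 cases and never higher in thyroid tissue (median log2FC 3.35). Of 39 genes listed, 26 could be tested, and most of those without enough reads were of groups 10 to 13. Among tested genes the difference was larger in the later paralogue groups. The median log2FC was 2.52 for the 8 tested genes of groups 1 to 4, 3.33 for the 11 of groups 5 to 8 and 8.75 for the 7 of groups 9 to 11. Of the last, HOXA10, HOXC9, HOXC10 and HOXC11 had at most 4 reads in any thyroid library, so they could pass the read filter only through BAT. The part of that filter in this order was not tested. HOXC9 (chr3:142051006-142054267) was at 7.27, 17.2 and 19.6 in BAT, and no thyroid library had more than 2 reads, a difference of at least 285-fold. HOXC10 was at 1.29 to 4.45 with at most 1 read in thyroid tissue (at least 70.6-fold), and HOXC11 at 0.235 to 2.05 with no thyroid read (at least 22.8-fold). HOXC8 was at 5.82 to 7.96 against 0 to 0.0422 (log2FC 8.80 ± 0.44), HOXA10 at 1.26 to 5.35 against 0 to 0.0287 (8.75 ± 0.64) and HOXA9 at 3.70 to 8.36 against 0.00719 to 0.132 (7.18 ± 0.53).

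The HOXB cluster departed from this order, and HOXD9 did so less (log2FC 3.37 ± 0.41). HOXB9 was at 0.102 to 0.989 in BAT against 0 to 0.386 in thyroid tissue (log2FC 1.56 ± 0.82, adjusted p = 0.135). HOXB8 was at 0.484 to 1.55 in BAT, inside the range of 0 to 3.75 of thyroid tissue (-0.09 ± 1.07). The other genes not called were HOXA2 and HOXB2, both of group 2, at log2FC 0.30 ± 0.27 and 0.23 ± 0.21. HOXB3 (14.1 to 25.6 against 3.39 to 10.6) and HOXA4 (9.06 to 19.2 against 0.9004 to 8.83) had the highest mean levels in BAT. The thyroid library of AT 3 held the highest HOXA4 value of that tissue, and the next was 1.79. Of 12 other tested regulators of position, 6 were higher in BAT and 1, ISL1, in thyroid tissue. The limb factor gene TBX5 (log2FC 4.77 ± 0.53) and the kidney and mesothelium factor gene WT1 (4.24 ± 0.32) differed most. WT1, also counted among the mesothelium genes, was highest in the BAT of AT 6 and AT 4, at 11.8 and 11.7. The ISL1 call was lost without AT 1, AT 2, AT 4 or AT 5 (log2FC -3.46 to -3.19), with the reference genes (-3.21) and when any gene with 1 read was tested (-3.77). In thyroid tissue HOXB5, HOXB6, HOXB7, HOXB8 and ISL1 were lowest in AT 6 and highest in AT 4, as was the calcitonin gene CALCA. HOXB3 and HOXB9 were lowest in AT 6 and highest in AT 5, and HOXB2 was lowest in AT 3. The part of calcitonin-producing cells in these levels was not tested.

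**Figure D3:**
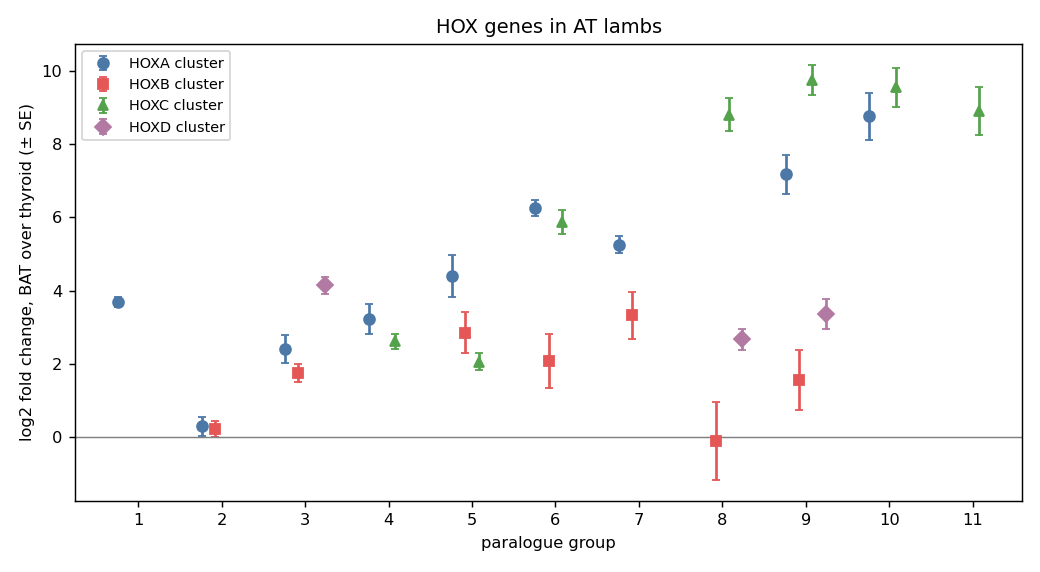
Log2 fold change (BAT over thyroid) ± SE of the 26 tested HOX genes against their paralogue group, by cluster. HOXA and HOXC genes of groups 8 to 10 reach 7.18 to 9.75, while HOXB8 and HOXB9 stay at -0.09 and 1.56.

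Marker lists of other cell types showed what else the samples held. In BAT, 10 of 12 endothelium genes were higher and none was lower (median log2FC 2.39). The vessel marker PECAM1 was at 126, 152 and 188 in BAT against 19.1, 24.3 and 55.0 in thyroid tissue (2.49 ± 0.27), and EGFL7 at 326 to 516 against 50.4 to 136 (2.42 ± 0.22). The summed level of the 12 genes was 864–1102 in BAT and 136–321 in thyroid tissue. Pericyte and smooth muscle genes were higher in BAT in 7 of 10 cases, led by MYH11 (2.92 ± 0.34), and red cell genes in both tested, HBB and ALAS2. Matrix genes were higher in 6 of 14, or in 10 without AT 3. FN1 was at 16.1 to 67.2 against 1.02 to 6.27 (3.63 ± 0.36), while COL1A1 was not called, at 44.3 to 105 in 5 BAT libraries and 566 in that of AT 6 (0.57 ± 0.40). The summed level of the 14 matrix genes was 2689 in the BAT of AT 6 against 543–861 in the others, and that of the brown adipocyte list was 77.9 against 199–603. The part of matrix-rich tissue in the low UCP1 of AT 6 was not tested. Of 10 macrophage genes 1, MRC1, was higher in BAT (2.22 ± 0.44). The count was 2 without AT 3 or without AT 6, and 5 on the scale of the reference genes, which also took the matrix genes to 11. Mesothelium genes were higher in 3 of 4, lymphatic endothelium genes in 1 of 5 (0 without AT 4, 2 without AT 3 and 3 on the scale of the reference genes) and cartilage genes in 1 of 2 (both on that scale), and nerve genes split into 2 higher and 1 lower of 8. The shares higher in BAT, 20% for lymphatic endothelium and 25% for nerve genes, were near the 18.5% of all tested genes, and the 10% for macrophage genes was below it. No B cell or neutrophil gene passed the test, with 2 tested of each.

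The defining markers of kidney were near or at 0: none of the 8 kidney genes present could be tested for want of reads, and UMOD had no read. Adrenal genes were low, with 2 of 3 tested higher in BAT and CYP17A1, a gene of steroid synthesis, higher in thyroid tissue (log2FC -1.90 ± 0.49). STAR, which brings cholesterol into mitochondria, was at 1.88 to 3.79 in 5 BAT libraries and at 37.3 in that of AT 1, while CYP11A1 had no read in BAT.

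In thyroid tissue, 6 of 8 tested C cell genes were higher and none was lower. C cells are the calcitonin-producing cells of the gland. The calcitonin gene CALCA was at 5.48 in AT 6, at 520 in the next library and at 7164 in AT 4, with a median of 1277. In BAT it had reads only in AT 1 (1.51), and its log2FC was -13.66 ± 1.39. CALCB, a close copy that may share reads with CALCA, ran from 0.412 in AT 6 to 435 in AT 4 (log2FC -10.08 ± 0.43). INSRR, an insulin receptor relative, and the calcium sensor gene CASR had the same lowest and highest lambs, at 0.0210 to 4.89 and 0.122 to 5.05. TG, in contrast, was at 4899 in the thyroid tissue of AT 6 and at 5979 in that of AT 4. Genes of thymus and T cells were higher in thyroid tissue in 4 of 9 cases (CD3G, CD3D, LCK and CD2), or in 2 without AT 1. TCF7, not called, was at 11.2 and 5.27 in thyroid AT 2 and AT 3 and at 0.328 to 0.509 in the other thyroid libraries. PTCRA and CD8B, not called either, were also highest in these thyroid libraries. DNTT, RAG1 and RAG2 could not be tested, with at most 197, 27 and 32 reads in thyroid tissue and 2, 2 and 0 in BAT. The part of thymus tissue was not tested. The list did not move as one: in the thyroid tissue of AT 4, CD3G was at 7.03 and CD3D at 4.10, while CD3E was at 0.276. Their summed level was highest in AT 2 in both tissues, at 49.9 in thyroid tissue and 12.5 in BAT, and the call of CD3G was lost without AT 1 (log2FC -3.13). That of CD2 was lost without any 1 lamb except AT 2 (-1.56 to -0.98), without the lamb term (-0.79), with the reference genes (-1.05) and with all 30 libraries (-1.43). Parathyroid hormone, the defining parathyroid marker, had at most 7 reads.

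Skeletal muscle genes set the thyroid library of AT 3 apart. The muscle actin gene ACTA1 was at 0.698 to 5.59 in 5 thyroid libraries and at 13810 in that of AT 3. The fast myosin gene MYH2 was at 0.167 to 0.681 and at 3268, and the slow troponin gene TNNI1 at 0.838 to 4.50 and at 738. The summed level of the 9 tested muscle genes was 6.34 to 15.99 in the other thyroid libraries, 29010 in AT 3 and 6.02 to 11.2 in BAT. Of the 9, 2 were called higher in thyroid tissue, TNNI1 (log2FC -14.96 ± 0.56) and MYH2 (-11.48 ± 2.96). Without AT 3 these were -9.66 and -4.99, both still called, and 3 of the 9 genes were then higher in BAT and 3 in thyroid tissue. Without AT 2 only 1 was higher in thyroid tissue, and without the lamb term all 9 were.

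**Figure D4:**
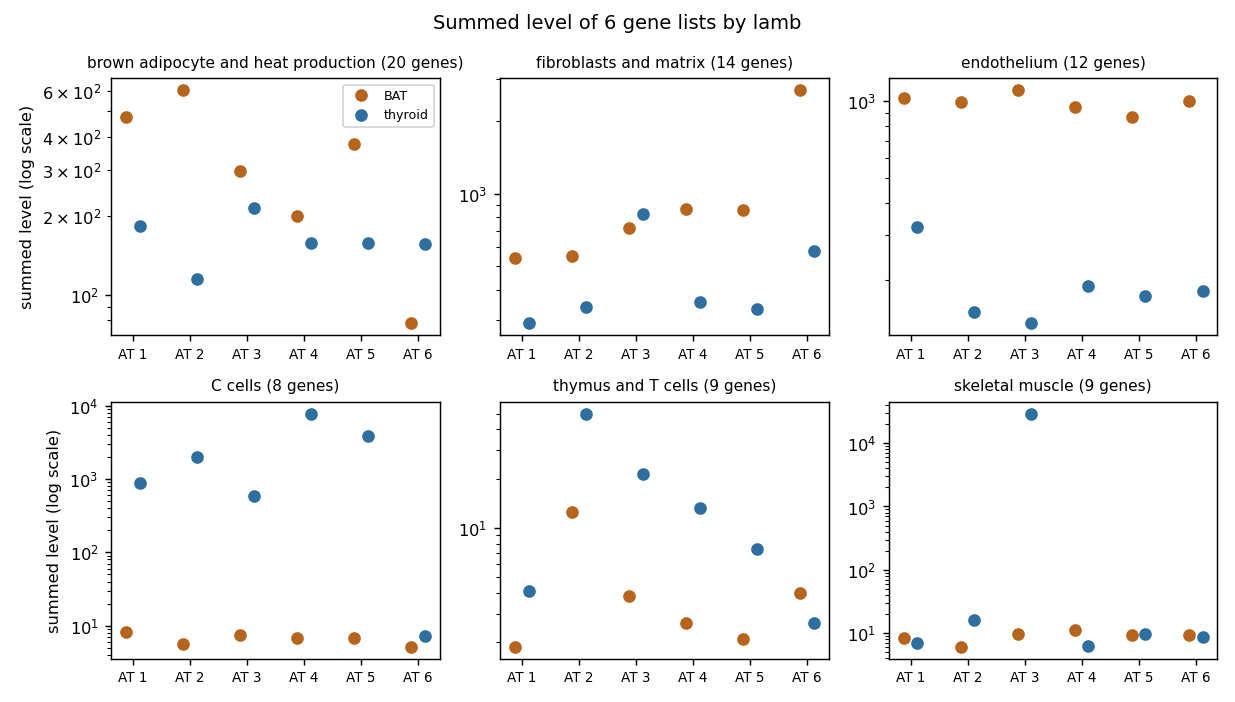
Summed length-scaled level (log y axis, a scale of its own in each panel) of the tested members of 6 gene lists in the BAT (brown) and thyroid (blue) library of each lamb. The brown adipocyte list is lowest in the BAT of AT 6 (77.9), C cell genes in the thyroid tissue of AT 6 (7.35), and skeletal muscle genes reach 29010 in the thyroid tissue of AT 3.

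By size of log2FC, 6 of the 10 leading genes of BAT with a symbol and no overlap were HOX genes, with UCP1 the eighth. The ammonium transporter gene RHBG was at 20.9, 49.3 and 179 in BAT and at 0.0442 to 0.591 in thyroid tissue (log2FC 7.88 ± 0.66). CYLC1, named for a protein of the sperm head, was at 17.4, 58.0 and 103 against 0 to 0.541 (7.78 ± 0.77), and CPN2, a subunit of a plasma peptidase, at 1.25, 8.92 and 20.7 against 0 to 0.207 (7.08 ± 0.68). All 3 were highest in the BAT of AT 1 and lowest in that of AT 6. The 10 leading genes of thyroid tissue were TNNI1, FOXE1, TG, CALCA, TSHR, GJB1, NKX2-1, KCNK16, LRRC6 and SALL1. TNNI1 had no read in BAT, so its fitted log2FC is no bound, and its first place rests on the thyroid library of AT 3 (-14.96 with it and -9.66 without). The gap junction gene GJB1 and the potassium channel gene KCNK16 had no read in any BAT library, at 5.16 to 14.7 and 2.67 to 36.1 in thyroid tissue (at least 108-fold and 89.7-fold). LRRC6 (chr9:23387767-23481170), on the chromosome of TG, was at 11.2 to 81.6 with at most 2 reads in BAT (at least 373-fold). The developmental factor gene SALL1 was at 4.63 to 9.46 with at most 1 (at least 175-fold).

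Genes with at least 10 reads in all libraries of one tissue and at most 3 in every library of the other numbered 9 for BAT and 167 for thyroid tissue, of which 5 and 115 had a symbol. Those of BAT were HOXC9, HOXC10, HOXC11, SLC47A2 and TEX11. For 2 of the BAT genes and 40 of the thyroid genes the other tissue had no read at all. BAT had fewer counts outside the pair of abundant loci, so a gene at the same level reached 10 reads there less easily; its part in the unequal numbers was not tested.

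The most abundant transcripts were shared in part. LOC114112617 and LOC114115287 led in BAT, at 18430–83660 and 13060–53170 against 2245–5860 and 1324–2480 in thyroid tissue (log2FC 3.64 ± 0.31 and 3.92 ± 0.28). Near-identical ribosomal RNA loci followed, among them LOC114112489 (2.35 ± 0.77, not called without AT 3). Reads that fit several loci were counted at each, so these copies cannot be separated. FABP4, TMSB10, RPLP1 and RPL23A were also among the 10 highest in BAT. In thyroid tissue TG was first, and CALCA, ACTA1, LOC114109996 and the ribosomal protein genes RPL23A and RPLP1 were among the 10 highest with the pair. ACTA1 owed its place to AT 3. RPLP1 did not pass the test (0.15 ± 0.23).

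As a share of the counts outside that pair, the 16 thyroid hormone synthesis genes took 4.10–10.3% in thyroid tissue and 0.0775–0.207% in BAT. The 34 adipocyte genes took 0.643–1.52% in BAT and 0.107–0.203% in thyroid tissue, and HOX genes 0.0635–0.0884% against 0.00542–0.0157%. Each of these shares was higher in the same tissue in 6 of 6 lambs (exact sign-flip permutation test over lambs, two-sided, p = 0.03125, adjusted over 9 shares p = 0.05625). With 6 lambs 0.03125 is the smallest p the test allows, and none of the 9 shares passed after adjustment. Oxidative phosphorylation genes took 0.472–0.995% in BAT against 0.337–0.843% outside the pair, higher in BAT in 6 of 6 lambs. Of all counts, they took more in thyroid tissue in 5 of 6.

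The same comparison was made in the Cold and Control lambs, which share no library with the AT lambs. In Cold lambs 6292 of 16518 genes were called (38.1%). Of 16219 genes tested in both, 4974 were called in the same direction in AT and Cold lambs, which is 87.4% of the AT calls and 81.3% of the Cold calls, and 2 were called in opposite directions. All 371 genes with an absolute log2FC of at least 5 in AT lambs that were tested in Cold lambs were called there in the same direction. In Cold lambs the median absolute difference from the AT log2FC was 0.68 for those genes. The 3 Control lambs gave 1796 calls of 16006 (11.2%). There, 1643 were shared in the same direction, 30.3% of the AT calls and 93.4% of the Control calls, and 97.0% of the AT calls had the same sign. Of 350 genes with an absolute log2FC of at least 5 in AT lambs, 303 were called there in the same direction (86.6%), with a median absolute difference of 1.19. The study left out 1 control, and all 3 are kept here. Control 2 stood apart, with 27.8% of its thyroid counts in the pair of abundant loci, against 5.18% and 8.04%, and 12883 genes with at least 10 reads in BAT, against 14992 and 15646. Without Control 2 the Control calls rose to 5442 of 16550, and 3947 were shared with the AT lambs, 70.3% of the AT calls and 75.6% of the Control calls. Of the genes with an absolute log2FC of at least 5, 367 of 376 were then called in the same direction. UCP1 had a log2FC of 7.78 in AT, 9.67 in Cold and 7.97 in Control lambs, TG of -13.73, -14.20 and -15.57, and HOXC9 of 9.75, 9.54 and 9.18. CD3G and CD3D, in contrast, were at -0.33 and -0.41 in Cold lambs; that difference did not pass the test across all genes.

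**Figure D5:**
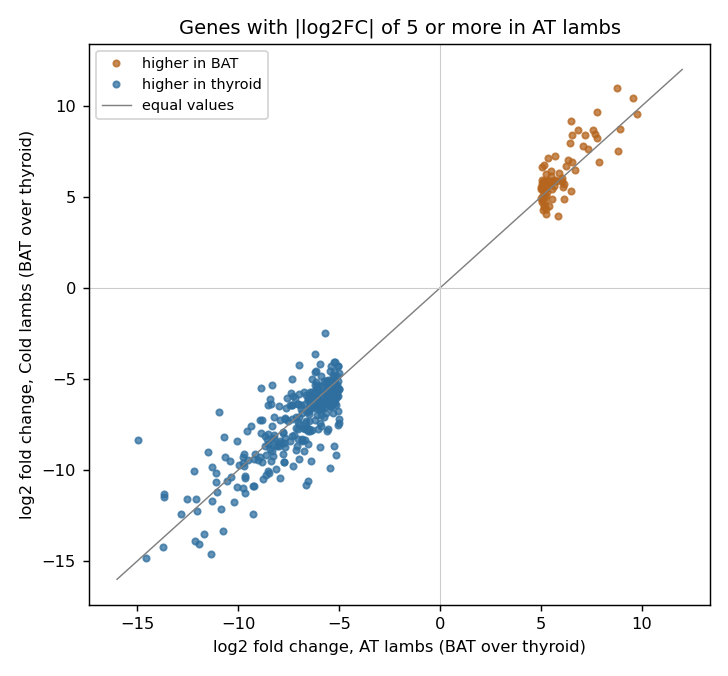
Log2 fold change (BAT over thyroid) of the 371 genes with an absolute value of at least 5 in AT lambs that were also tested in Cold lambs, AT on the x axis and Cold on the y axis, with the line of equal values. Genes higher in BAT (brown) and in thyroid tissue (blue) in AT lambs lie on the same side of 0 in Cold lambs, and TNNI1 lies far from the line at -14.96 and -8.34.

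Tests of the tissue difference itself between groups of lambs called few genes. Between AT and Cold lambs, 1 of 17567 genes was called (0.00569%), with 1356 at an unadjusted p under 0.05. It was HCRTR1, the orexin 1 receptor gene, whose log2FC was 2.98 in AT and 5.56 in Cold lambs (difference -2.60 ± 0.34, adjusted p = 0.0335). In AT lambs it was at 1.25, 2.16 and 4.72 in BAT and at 0.131, 0.324 and 0.444 in thyroid tissue. The number called was 0 to 9 when 1 lamb was left out, with 9 reached without AT 2, and 0 without AT 4, AT 5 or any Cold lamb except Cold 5. Between AT and Control lambs, 5 of 17130 genes were called (0.0292%). SSUH2 (log2FC 6.07 in AT and 2.52 in Control lambs) and NUPR1, a stress response gene (1.43 and -1.59), were more on the BAT side in AT lambs, as was TLN2 (-0.28 and -2.47). IL1RN, the interleukin 1 receptor antagonist gene (0.93 and 4.93), and APLN, the apelin gene (-2.68 and 1.74), were more on the thyroid side. The number called was 0 to 12, with 12 reached without Control 2, 1 without AT 4, and 0 without AT 2, AT 5, Control 1 or Control 3.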

How the data were processed

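The authors deposited 1 table of raw read counts per gene, 1 column per library, made from paired reads that were trimmed with Trimmomatic 0.39, aligned with STAR 2.7.7a to Oar_rambouillet_v1.0 and counted with featureCounts (Subread 2.0.0), multi-mapping reads included. The strand setting is not given in the sources used here, so overlapping and antisense genes cannot be separated. The table held 28524 genes, 10441 of them with LOC names, and 406 LOC names were replaced by the symbol of the RefSeq table of ARS-UI_Ramb_v3.0. Lambs were numbered by rising animal number.

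Testing took genes with 10 or more reads in 6 or more of the 12 libraries, and was done with edgeR 4.0.16 (R 4.3.3), quasi-likelihood, with TMM scaling and a term for lamb, since both libraries of a lamb come from 1 animal. Deviations from the tissue means correlated at 0.0301 to 0.267 within lambs and at -0.212 to 0.0699 between lambs. P-values were adjusted by Benjamini-Hochberg over all tested genes. SE is the absolute log2FC divided by the square root of F, log2FC being relative to thyroid. Data were simulated with a single expression profile for both tissues and a single dispersion for all genes, so they were simpler than the real libraries. Of genes changed there by a log2FC of 2, 100% were called in the AT comparison (16533 genes). The tests between groups of lambs called 92% (AT against Cold) and 77% (AT against Control). Power in the real data cannot be read from these rates. A share of counts was compared by an exact sign-flip permutation test.

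Members and gene lists were chosen with earlier results of these data known. Genes named are list members (the most abundant, those with the largest log2FC and those opposite to their list), the 10 largest log2FC in each direction, the 10 most abundant per tissue, those with the largest spread over lambs, those called between groups of lambs and the 3 reference genes; further list members and UCP3 were named after their values were seen. Some genes that the rule chose are not reported here. Alternatives were other scalings, filters, thresholds and tests (DESeq2 1.42.0), no replicate block, all 30 libraries and each lamb left out. Leaving out a lamb for the genes with reads in 1 tissue, dropping the block between groups of lambs, and leaving out each Control lamb from the Control comparison, were added after seeing the data. Depth limits the precision of low levels, most in BAT.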

Additional observations from a re-analysis of the deposited data

Results flagged for a closer look

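Among 170 sets of 6 lamb values (the log2 ratio of BAT to thyroid of each named gene, and the median ratio of each list), 17 had 1 lamb far from the other 5. For a set chosen without its values chance gives about 1 in 20, but some of these genes were named for their spread over lambs and the list medians reuse listed genes, so the 17 cannot be read against that rate. AT 6 was that lamb in 7 sets and AT 3 in 6.

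In AT 6 the ratio was 2.90 for PPARG (4.47 to 5.2 in the other lambs), 2.18 for LIPE (4.74 to 5.21), 5.42 for HOXB9 (-0.721 to 1.5), 2.39 for ISL1 (-5.32 to -3.44) and -1.01 for APLN (-3.37 to -2.72). The median ratio of AT 6 was 0.0400 for the endoplasmic reticulum list (-0.87 to -0.58) and 0.11 for the parathyroid list (-3.70 to -2.37). BAT of this lamb had the highest summed matrix level (2689) and the lowest brown adipocyte level (77.9), and its thyroid tissue had the lowest C cell level (7.35). Their part in these ratios was not tested.

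In AT 3 the ratio was -15.2 for ACTA1 (-4.04 to 0.211), -17.4 for MYH2 (-6.12 to -2.83) and -13.8 for TNNI1 (-6.47 to -4.11), and the median of the skeletal muscle list was -10.2 (-0.68 to 0.72). HHEX (-2.12 against -3.89 to -3.36) and HOXA4 (0.935 against 3.28 to 3.96) were closer to BAT in this lamb. Its thyroid library held muscle genes at a summed level of 29010 and the lowest level of all 5 thyroid transcription factors.

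In AT 1 the ratio was -9.70 for TG (-15.8 to -13.6) and -7.44 for RAB25 (-9.22 to -8.56). BAT of AT 1 had 1160 reads of TG, and it was the only BAT library with CALCA reads. AT 4 stood apart for SSUH2 (7.14 against 5.37 to 5.97) and AT 5 for C1QA (-1.51 against -0.150 to 0.366).

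The tissue difference differed by test between groups of lambs for HCRTR1 (-2.60, AT minus Cold) and, AT minus Control, for IL1RN (-3.96), TLN2 (2.23), SSUH2 (3.58), NUPR1 (3.07) and APLN (-4.36).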

How the results depend on the processing

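The count of genes called stayed within 1.5 times the reported 5859 under other scalings, filters and tests, and without any 1 lamb (5544 to 6183). It was 9479 by adjusted p alone and 2478 at an absolute log2FC of 2. Without the replicate block, that is without pairing by lamb, 5819 genes were called, 420 of them at an absolute log2FC of 5. That count, 390 as reported, was 662 at a threshold of 4 and 233 at 6, 667 with any gene of 1 read tested and 83 when 10 libraries had to hold 10 reads, a filter that removes genes of 1 tissue by its construction (367 to 466 without any 1 lamb). Genes with reads in 1 tissue, 176 as reported, were 519 with up to 10 reads allowed in the other tissue, 100 with at least 30 reads, and 187 to 264 without 1 lamb (264 without AT 6), where fewer libraries have to pass.

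With the reference genes as scale, calls rose to 9 for the tricarboxylic acid cycle and 32 for oxidative phosphorylation, and fell to 2 for thyroglobulin uptake and 2 for the endoplasmic reticulum. Without 1 lamb the counts in the leading direction were 5 to 15 for fatty acid oxidation, 3 to 7 for the tricarboxylic acid cycle, 9 to 25 for oxidative phosphorylation, 2 to 5 for creatine and calcium cycling, 2 to 4 for thyroglobulin uptake and 3 to 10 for the endoplasmic reticulum.

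Between AT and Cold lambs, 0 genes were called by edgeR with all 30 libraries in 1 fit (836 at an unadjusted p under 0.05), 7 without the replicate block and 0 to 9 without 1 lamb. Between AT and Control lambs the counts were 162, 3 and 0 to 12, and 2 with the reference genes. In Control lambs alone, 1796 genes were called, 1242 to 5442 without 1 lamb, the highest without Control 2. The cause of these changes was not tested.

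As shares of all counts, the BAT minus thyroid difference turned to -0.127 percentage points for oxidative phosphorylation and -0.0244 for fatty acid oxidation; it was -0.251 for the endoplasmic reticulum list, with the smallest exact p, 0.03125. For skeletal muscle it was -1.70 with the same exact p, lower in BAT in 6 of 6 lambs. That mean comes from thyroid AT 3 (10.18% against a thyroid median of 0.00226%), and outside the pair 2 lambs were higher in BAT (-1.99, exact p = 0.3125). Of 118 named genes that were called, 105 stayed called in every alternative that tested them, and no named gene that was called turned direction. The calls lost at least once included those of CALR, CD2, CD3G, CTSL, DIO2, HOXB6, INSRR, ISL1, LOC114112489, MAL2, MYH2 and UPK3B. Leaving out the block changed no list count in the leading direction by more than 1.5 times except that of skeletal muscle, 9 in place of 2. Low levels in BAT rest on few reads, since the abundant pair of loci took 43.8–76.5% of the counts there.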
